A study of Mus musculus with 6 samples.

Results

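Interleukin 1 (IL-1) family cytokines and the molecules that dying cells release were examined as 10 genes, namely Hmgb1, Anxa1, Il33, Il1a, Il1b, Il18, Il1rn, Il1r1, Il1rl1 and P2rx7. They were chosen by gene symbol from the 55536 genes of the count table, and all 10 were among the 15374 genes that had enough counts to be tested. The RNA came from tumors of HCA-1 cells, a murine hepatocellular carcinoma (HCC) line, implanted orthotopically in the livers of male C3H mice (C3H/HeNCrNarl in the methods) aged 6 to 8 weeks. The 3 control tumors (numbers 5, 6 and 7) were untreated. The 3 GOx-DOX-LGP tumors (numbers 1, 2 and 5) came from mice given the nanoparticle intravenously on days 18, 19 and 20. The labels carry these injection days for all 6 samples, the controls included. LGP is a lipid–gelatin–protamine nanogel, GOx is glucose oxidase, which consumes glucose and makes hydrogen peroxide, and DOX is doxorubicin, a DNA-damaging drug. All mice carried the same implanted line, and the paper describes this HCA-1 model as immunocompetent. The 6 libraries include no arm with empty nanogel, GOx alone or DOX alone, so the agents cannot be told apart from each other or from their carrier. The labels place the transcriptome analysis on day 17 after 3 h of circulation, which is before the first labelled injection. The Supporting Information, in its paragraph on RT-qPCR of tumor RNA, instead has tumors harvested the day after the last injection, and its sequencing paragraph gives no day, so the interval between dosing and harvest is uncertain. No label states in so many words that each library is 1 animal, and the p-values measure the spread between these libraries.

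Alarmins are molecules that sit inside healthy cells and act as danger signals once they escape. HMGB1 is a nuclear chromatin protein that binds Toll-like receptors and RAGE after release, annexin A1 guides phagocytes through formyl peptide receptors, and IL-33 and IL-1α are cytokines stored in the nucleus or cytoplasm. IL-1β and IL-18 are made as inactive precursors and cut by caspase-1 in inflammasomes, which the ATP-gated channel P2X7 can trigger. IL-1α and IL-1β signal through IL1R1, the antagonist IL1RN occupies the same receptor without signalling, and IL-33 signals through ST2, the product of Il1rl1. In the liver, Kupffer cells and infiltrating macrophages are known sources of IL-1β and IL-18. Sequencing of mRNA measures neither the release of these proteins nor the cutting of their precursors.

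The 6 libraries held between 15529940 and 18401178 counts, so that 3 counts, taken as the lowest level a library could show, corresponded to 0.163 to 0.193 CPM (counts scaled to library size) before TMM factors were applied. Levels are given as CPM on TMM-scaled library sizes, always in the order of controls 5, 6 and 7 and of treated (GOx-DOX-LGP) tumors 1, 2 and 5. Such floors cover counting error only. Controls 6 and 7 stood apart from the other 4 libraries. Their log2 CPM values over all genes kept had Pearson's r = 0.972 with each other and 0.662 to 0.734 with control 5, whereas control 5 had 0.968 to 0.977 with the treated tumors. These are correlations across genes, which are not independent replicates. The 10 hepatocyte markers summed to 115326 and 191615 CPM in controls 6 and 7, to 565 CPM in control 5 and to 1215 to 3082 CPM in the treated tumors. The 8 liver tumor markers summed to 2221, 522 and 109 CPM in controls 5, 6 and 7 and to 1714 to 2002 CPM in the treated tumors. Cd44 was the highest of them, at 1366, 214 and 40.0 CPM in the controls and 1084 to 1242 CPM in the treated tumors. Afp and Gpc3 went the other way. Afp was at 10.3 and 13.2 CPM in controls 6 and 7 and at 2.25 to 4.94 CPM in the other 4. Gpc3 was at 2.29 and 2.15 CPM there and at 0.784 to 1.10 CPM in the other 4. Krt19 had 30.7, 69.6 and 13.0 CPM in the controls and 42.7 to 71.3 CPM in the treated tumors. The proliferation gene Mki67 was at 15.4 CPM in control 7, 124 CPM in control 6 and 238 to 347 CPM in the other 4. Control 5 thus resembled the treated tumors more than the other controls. The labels do not say how the tumors were dissected, and whether any control departs from what its label states was not tested, so every group difference rests on the labels as given. Fold changes of the 10 genes are given below also without control 5 and without controls 6 and 7, while ratios, likeness and most single pathway genes are given over all 6 libraries. In bulk RNA, fewer cells of a type and less RNA per cell cannot be told apart.

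Of the alarmin and cytokine genes, 4 (Anxa1, Il33, Il1a and Il1b) share a promoter feature, and their promoters are shown for that reason. Each had the letters TATAAA on its own strand between 25 and 35 bases before a RefSeq start, against 1.75% of 32851 RefSeq start windows. RefSeq (GRCm38.p6) gave 17 start windows for the 10 genes, and 4 of the 17 held it there. The sequences below are the 250 bases before the start, 5′ to 3′ on the gene's strand. Capitals mark TATAAA and, in Il1a, TGANTCA, the AP-1 motif. Anxa1 is at chr19:20390672-20390921 on the minus strand, with TATAAA beginning 32 bases before the start. Il33 is shown at its downstream start, chr19:29945540-29945789 on the plus strand, with TATAAA beginning 29 bases before it. Il1a is at chr2:129309973-129310222 on the minus strand and Il1b at chr2:129371140-129371389 on the minus strand, with TATAAA beginning 32 and 31 bases before the start.
Anxa1: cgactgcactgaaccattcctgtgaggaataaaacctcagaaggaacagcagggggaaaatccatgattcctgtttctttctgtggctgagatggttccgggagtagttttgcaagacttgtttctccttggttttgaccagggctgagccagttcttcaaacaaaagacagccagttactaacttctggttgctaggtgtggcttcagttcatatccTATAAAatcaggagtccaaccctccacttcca
Il33: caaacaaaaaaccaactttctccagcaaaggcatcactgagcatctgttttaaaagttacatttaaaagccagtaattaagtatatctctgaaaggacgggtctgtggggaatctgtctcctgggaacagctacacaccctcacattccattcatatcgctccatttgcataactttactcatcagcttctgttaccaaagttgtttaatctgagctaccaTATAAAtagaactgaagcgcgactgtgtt
Il1a: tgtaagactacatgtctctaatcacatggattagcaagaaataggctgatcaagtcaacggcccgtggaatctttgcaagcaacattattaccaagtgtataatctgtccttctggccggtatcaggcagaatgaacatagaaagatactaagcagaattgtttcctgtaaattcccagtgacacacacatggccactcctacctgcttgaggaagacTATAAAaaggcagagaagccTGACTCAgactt
Il1b: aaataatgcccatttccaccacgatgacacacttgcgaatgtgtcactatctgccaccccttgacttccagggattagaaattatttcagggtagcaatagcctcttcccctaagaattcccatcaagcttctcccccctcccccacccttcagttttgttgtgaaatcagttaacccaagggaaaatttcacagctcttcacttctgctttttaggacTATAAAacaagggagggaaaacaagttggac
TATAAA occurred on either strand anywhere in the 250 bases in 12.4% of windows, TGANTCA in 6.75% and the κB consensus in 7.25%. The AP-1 letters in Il1a began 12 bases before the start. They also occurred in a window of Il1rn and in one of P2rx7, and the κB consensus occurred in a window of Il1r1. The other windows of the 10 genes held neither. A match is a description of the letters, not a binding site.

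Across the 10 genes, none passed the adjusted threshold of 0.05 in edgeR's quasi-likelihood test, with adjusted p between 0.247 and 0.814. Over all 15374 genes kept, 0 passed (0%), and 2685 had an unadjusted p under 0.05. The log2 fold change (GOx-DOX-LGP minus control) was above 0 for 6 of the 10 and below 0 for 4. At an unadjusted p under 0.05, 0 of 10 were higher and 1, Il1r1, was lower, against 2.87% of all genes higher and 14.6% lower. In DESeq2, 0 of 10 passed, against 0.994% of all genes higher and 9.54% lower. The groups did not overlap for Il1rn, which was higher in all 3 treated tumors, and for Il1r1, which was lower in all 3. That is 1 of 10 in each direction, against 8.87% of all genes higher and 8.31% lower. With 3 libraries against 3, the exact permutation test cannot give a p below 0.1.

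**Figure D1:**
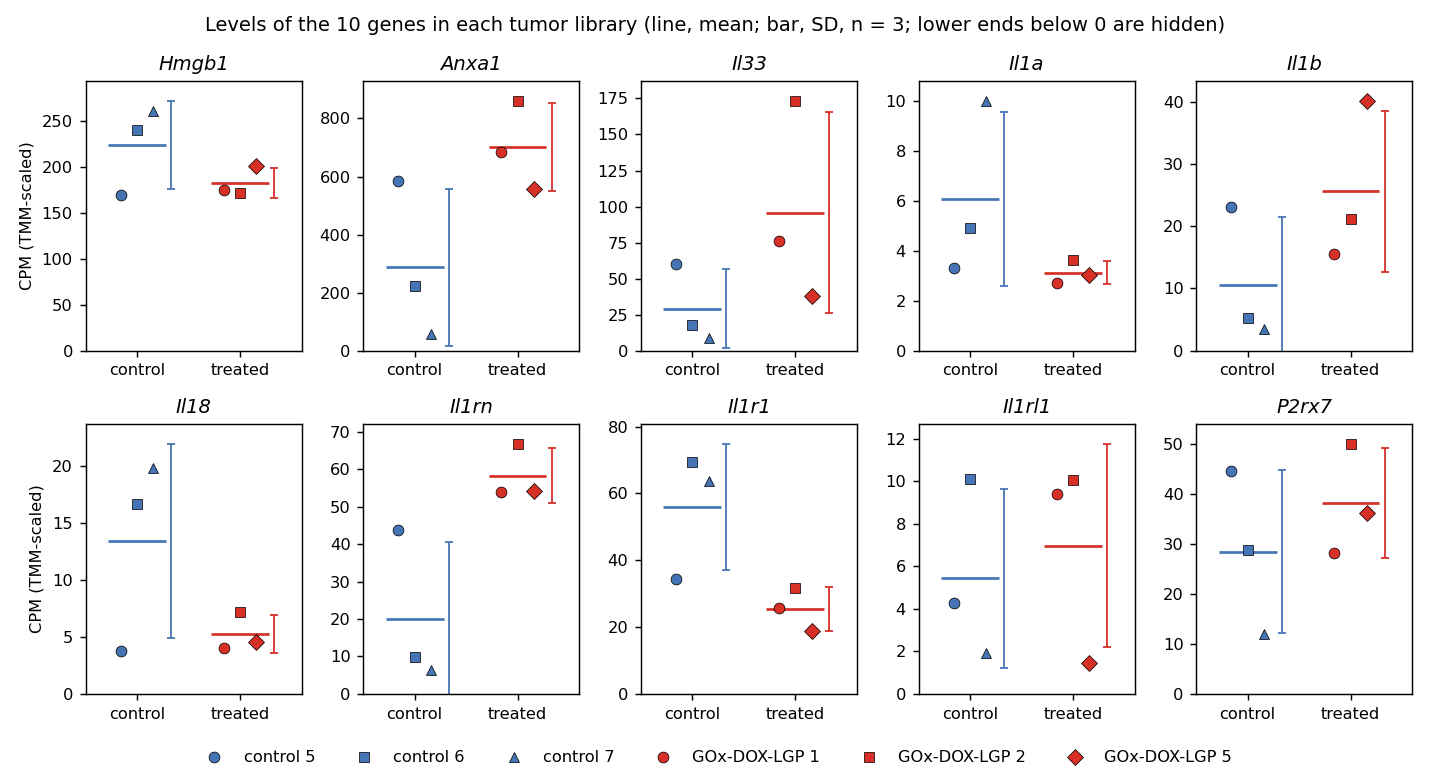
Level of each gene in CPM on TMM-scaled library sizes (y axis, linear, a scale of its own in each panel) in the 3 control (blue) and the 3 GOx-DOX-LGP (red) tumors; lines are means and bars are SD. Controls 6 and 7 lie together on 1 side of the other 4 libraries in 8 of the 10 panels, and the groups are apart only for Il1rn and Il1r1.

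Among the nuclear alarmins, Hmgb1 (chr5:149046702-149184489, minus strand, GRCm38) was at 170, 240 and 262 CPM in the controls and at 175, 172 and 202 CPM in the treated tumors. Control 5 was just under the treated tumors and controls 6 and 7 were above them, so the groups overlapped. The log2 fold change was -0.29 ± 0.27 (SE, n = 3 per group, 95% CI -0.94 to 0.36, adjusted p = 0.548 in edgeR's quasi-likelihood test). Hmgb1 is a gene with many near-identical copies, and 22.7% of its 50-base stretches also occur in 132 other genes, 130 of them pseudogenes. Counts assigned to those pseudogenes came to 6.87% to 13.6% of the Hmgb1 count, so its level is uncertain by how the counting split such reads. Its direction also depended on the scaling, with a log2 fold change of 0.32 when libraries were scaled by their totals, a scaling under which the median of all genes moved from 0.02 to 0.51. Relative to that median, Hmgb1 was between -0.32 and -0.19 under 4 scalings.

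Anxa1 (chr19:20373428-20390944, minus strand), the phagocyte-guiding annexin, had 583, 221 and 56.5 CPM in the controls and 684, 860 and 558 CPM in the treated tumors. Controls 6 and 7 were low, and control 5 lay within the treated range. The control libraries spanned a 10.3-fold range and the treated libraries a 1.54-fold range. The log2 fold change of 1.29 ± 0.80 (SE, 95% CI -0.66 to 3.23) did not pass (adjusted p = 0.414, edgeR).

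Il33 (chr19:29925114-29960718, plus strand), a nuclear cytokine of barrier and stromal cells, had 60.2, 18.1 and 9.04 CPM in the controls and 75.9, 173 and 38.0 CPM in the treated tumors. The highest library was treated tumor 2, and treated tumor 5 was below control 5. The treated tumors alone spanned a 4.56-fold range. Its log2 fold change was 1.71 ± 0.85 (SE, 95% CI -0.36 to 3.79, adjusted p = 0.345, edgeR), the highest of the 10. The stromal markers moved with it only in part. The 8 stellate cell and fibroblast markers summed to 6882 CPM in treated tumor 2, 4585 CPM in treated tumor 1 and 2195 CPM in treated tumor 5, and to 5730, 1835 and 1573 CPM in controls 5, 6 and 7, sums made up mostly of the collagen genes Col1a1, Col1a2 and Col3a1. In the controls, 4 of the 8 had control 5 highest, as Il33 did, and the other 4 (Dcn, Lum, Lrat and Reln) had it lowest. Lrat and Reln were also lowest in treated tumor 2, where Il33 was highest. The part of these cells in the level of Il33 was not tested.

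Il1a (chr2:129299610-129309972, minus strand), which acts from dying cells without inflammasome cutting, had 3.33, 4.92 and 10.0 CPM in the controls and 2.72, 3.63 and 3.02 CPM in the treated tumors. These levels rest on 55 to 93 counts per library. Treated minus control, the difference was -0.95 ± 0.47 on the log2 scale (SE, 95% CI -2.09 to 0.18, adjusted p = 0.339, edgeR), with control 5 inside the treated range. Gm14023 lies on the opposite strand and overlaps 222 exonic bases of Il1a (11.2%), and had 5 to 21 counts. The strand setting of the counting is not given in the sources used here, so a share of such reads could be counted with either gene.

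Il1b (chr2:129364570-129371139, minus strand), the secreted inflammasome substrate, had 23.0, 5.26 and 3.44 CPM in the controls and 15.5, 21.2 and 40.1 CPM in the treated tumors. Its direction was opposite to that of Il1a, and control 5 again lay within the treated range. In edgeR the difference was 1.26 ± 0.79 on the log2 scale (SE, 95% CI -0.65 to 3.17, adjusted p = 0.415). The highest library, treated tumor 5, also had the highest sum of 7 neutrophil markers, 57.5 CPM against 18.1 and 27.3 CPM in treated tumors 1 and 2 and 8.18 to 22.9 CPM in the controls, with S100a9 at 22.1 CPM there and at 2.04 to 4.66 CPM in the other 5. That sum rests on S100a8 and S100a9. Of the 7 markers, 4 were highest in treated tumor 5, while Csf3r and Mmp8 were highest in treated tumor 2 and Cxcr2 in control 6. Ly6g, a defining neutrophil marker, had 0 to 7 counts. The sum of the 9 macrophage markers, 8 of them singly as well, was highest in treated tumor 2, at 4199 CPM, against 2173 CPM in treated tumor 5, 1542 CPM in treated tumor 1 and 814 to 1616 CPM in the controls. The part of these cells in the level of Il1b was not tested.

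Il18 (chr9:50554827-50581840, plus strand), the second inflammasome substrate among the 10, ran opposite to Il1b. It had 3.77, 16.7 and 19.8 CPM in the controls and 4.05, 7.15 and 4.53 CPM in the treated tumors. Control 5 was the lowest library of all, and controls 6 and 7 were the highest. Its log2 fold change was -1.35 ± 0.63 (SE, 95% CI -2.89 to 0.19, adjusted p = 0.326, edgeR), the lowest of the 10. The 5 Kupffer cell markers had a like split (4 of the 5 singly, all but Marco), with sums of 279 and 286 CPM in controls 6 and 7, 28.4 CPM in control 5 and 26.7 to 51.9 CPM in the treated tumors, as did the hepatocyte markers above. Their part in the level of Il18 was not tested.

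Il1rn (chr2:24336853-24351494, plus strand), the IL-1 receptor antagonist, had 43.8, 9.84 and 6.35 CPM in the controls and 53.9, 66.7 and 54.3 CPM in the treated tumors. All 3 treated tumors were above all 3 controls, by a small step over control 5 and a large one over the other controls. The treated tumors spanned a 1.24-fold range, the controls 6.90-fold. Il1rn had a log2 fold change of 1.54 ± 0.73 (SE, 95% CI -0.24 to 3.31, adjusted p = 0.330, edgeR), and the exact permutation test gave the smallest p it can, 0.1.

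Il1r1 (chr1:40225080-40317257, plus strand), the signalling receptor for IL-1α and IL-1β, had 34.3, 69.5 and 63.8 CPM in the controls and 25.8, 31.8 and 18.8 CPM in the treated tumors. All 3 treated tumors were below all 3 controls, with control 5 only a small step above treated tumor 2. Il1r1 had a log2 fold change of -1.13 ± 0.35 (SE, 95% CI -1.98 to -0.28), the only interval of the 10 that left out 0. Its unadjusted p was 0.017 and its adjusted p 0.247 in edgeR, with 0.057 in DESeq2, and the exact permutation test gave p = 0.1. The 7 endothelial markers summed to 374 and 432 CPM in controls 6 and 7, to 118 CPM in control 5 and to 89.6 to 116 CPM in the treated tumors. Control 5 lay between the other controls and the treated tumors, as it did for 5 of the 7 markers singly, and the part of endothelial cells was not tested.

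Il1rl1 (chr1:40429570-40465415, plus strand), which encodes ST2 as a membrane receptor for IL-33 and as a soluble decoy, had 4.26, 10.1 and 1.94 CPM in the controls and 9.39, 10.0 and 1.46 CPM in the treated tumors. Both forms come from the same gene and its counts do not separate them. The levels did not follow the groups, with 1 control and 2 treated tumors near 10 CPM and the lowest library in each group under 2 CPM. With that spread, the log2 fold change was 0.36 ± 0.86 (SE, 95% CI -1.73 to 2.45, adjusted p = 0.814, edgeR; exact permutation p = 1), and without control 7 it was -0.04.

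The levels of Il1rl1 had the same split as those of mast cell genes, a cell type known to carry ST2. Cpa3, a mast cell protease, had 8.91, 53.2 and 9.79 CPM in the controls and 30.2, 29.7 and 5.10 CPM in the treated tumors. Mcpt4, a mast cell chymase, had 12.02, 69.1 and 13.5 CPM in the controls and 38.0, 36.3 and 9.16 CPM in the treated tumors. All 7 mast cell markers summed to 59.7, 222 and 50.7 CPM in the controls and 155, 146 and 37.8 CPM in the treated tumors. In 5 of the 7, control 6 and treated tumors 1 and 2 were above the other 3 libraries, as for Il1rl1. Kit and Hdc were the exceptions. The defining cytokines of group 2 innate lymphoid cells, another known ST2 carrier, were near 0. Il5 had 0 to 5 counts and Il13 0 to 1. All 6 markers of that list summed to 95.6 to 190.3 CPM in the controls and 56.3 to 97.3 CPM in the treated tumors. Most of that sum was Rora and Areg, which ran in opposite directions. Rora was at 135 and 188 CPM in controls 6 and 7 and at 9.16 to 15.8 CPM in the other libraries. Areg was at most 3.14 CPM in controls 6 and 7 and at 34.4 to 80.0 CPM in the other libraries. Gata3 and Klrg1 were higher in all 3 treated tumors than in all 3 controls (log2 fold changes 1.04 and 1.21). Neither passed the adjusted threshold in edgeR. The 7 T cell markers, a lineage with some ST2 carriers, summed to 25.6 to 80.5 CPM in the controls and 108 to 155 CPM in the treated tumors, and the 6 dendritic cell markers to 29.9 to 52.1 CPM and 30.0 to 47.4 CPM. Neither sum had the split of Il1rl1. This is a description of 6 libraries, and the part of mast cells in the level of Il1rl1 was not tested.

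**Figure D2:**
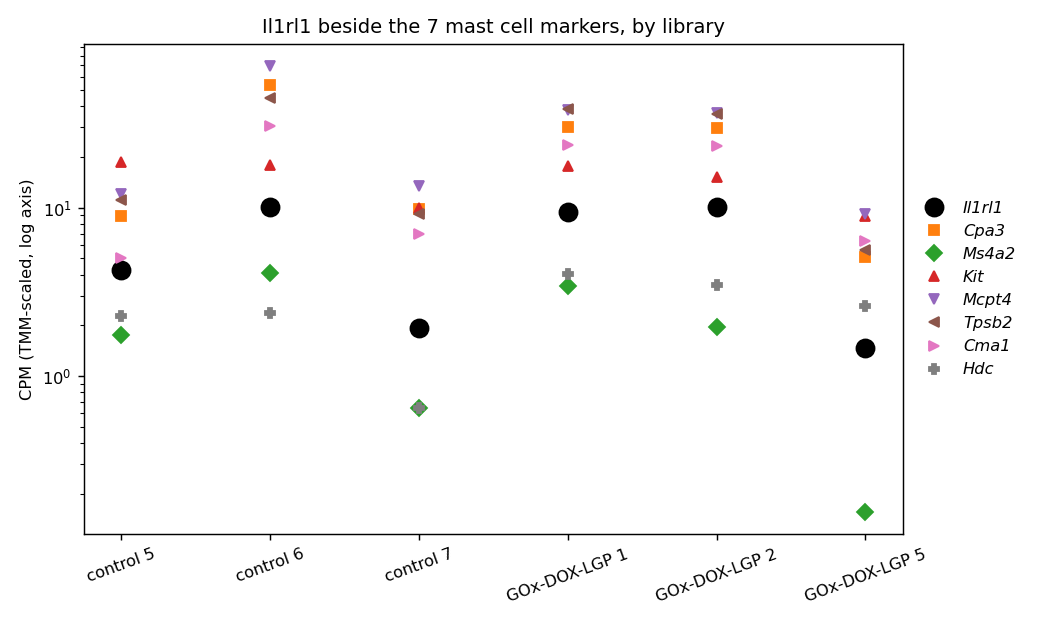
Il1rl1 (large black circles) and the 7 mast cell markers (small colored symbols) in each of the 6 libraries, in CPM on TMM-scaled library sizes (log axis). Il1rl1 is near 10 CPM in control 6 and treated tumors 1 and 2, the libraries in which Cpa3, Ms4a2, Mcpt4, Tpsb2 and Cma1 are also highest.

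P2rx7 (chr5:122643911-122691432, plus strand), the channel that senses ATP spilled by dying cells, had 44.7, 28.8 and 11.9 CPM in the controls and 28.2, 50.02 and 36.2 CPM in the treated tumors. Control 7 alone was low, and the other 5 libraries lay within a common range. The log2 fold change was 0.42 ± 0.50 (SE, 95% CI -0.79 to 1.62, adjusted p = 0.632, edgeR).

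The size of most of these differences depended on which controls entered the comparison. Controls 6 and 7 were both below the other 4 libraries for 4 genes (Anxa1, Il33, Il1b and Il1rn), both above them for 4 (Hmgb1, Il1a, Il18 and Il1r1), and mixed with them for 2 (Il1rl1 and P2rx7). Control 5 lay within the range of the treated tumors for 6 of the 10. Without control 5, 7 of the 10 passed the adjusted threshold in edgeR, 4 of them higher and 3 lower, against 22.2% of all 16249 genes tested higher and 25.5% lower. Il1rn then had a log2 fold change of 2.87 (adjusted p = 0.000176), Il33 2.84 (adjusted p = 0.0124), Il1b 2.57 (adjusted p = 0.00440) and Anxa1 2.36 (adjusted p = 0.0139) in edgeR. On the lower side were Il18 at -1.76 (adjusted p = 0.00331), Il1r1 at -1.35 (adjusted p = 0.00362) and Il1a at -1.22 (adjusted p = 0.0348). Hmgb1 at -0.43, P2rx7 at 0.93 and Il1rl1 at 0.23 did not pass. With control 5 as the only control, a choice made after the values were seen in which its spread is assumed to be that of the treated tumors, 0 of 10 had an adjusted or an unadjusted p under 0.05 in edgeR. The log2 fold changes then lay between -0.41 for Il1r1 and 0.73 for Il1rl1, and those of Hmgb1 (0.12), Il18 (0.49) and P2rx7 (-0.21) changed sign. Il33 was then at 0.68, Il1rn at 0.43, Anxa1 at 0.28, Il1b at 0.16 and Il1a at -0.08.

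**Figure D3:**
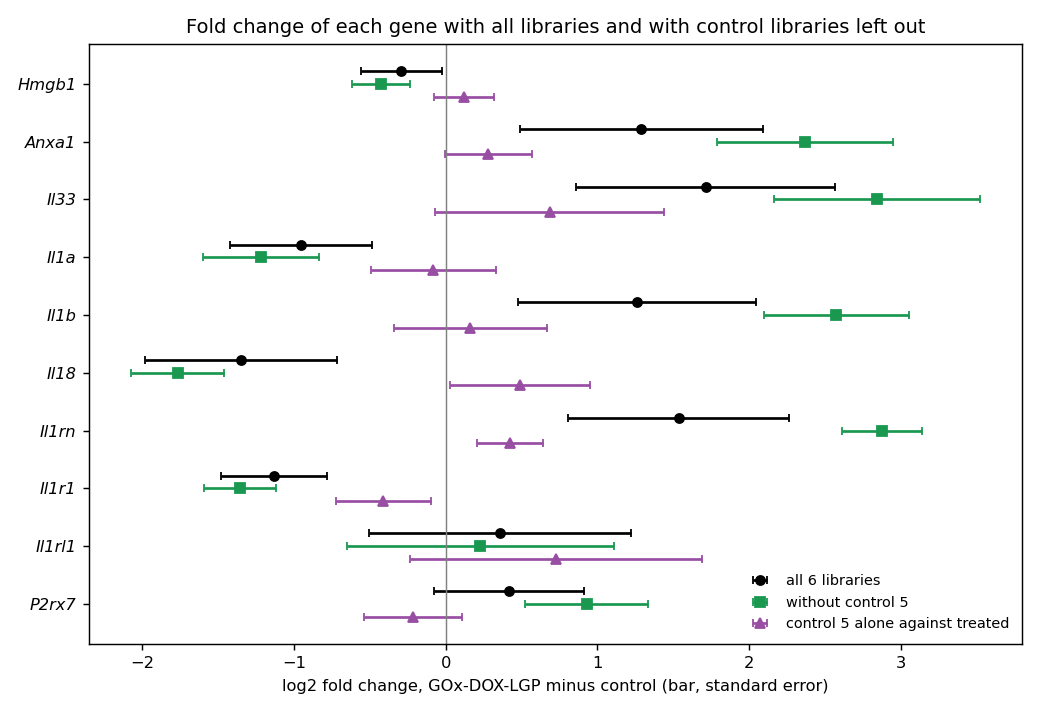
Log2 fold change (GOx-DOX-LGP minus control) of each gene from edgeR with all 6 libraries (black circles), without control 5 (green squares) and with control 5 as the only control (purple triangles); bars are standard errors. Leaving out control 5 moves Anxa1, Il33, Il1b and Il1rn to between 2.36 and 2.87, and with control 5 alone all 10 lie between -0.41 and 0.73.

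Levels were compared between genes only as CPM per kilobase of exon. In the treated tumors Anxa1 was highest, at 241 ± 52.1 (SD, n = 3), followed by Hmgb1 at 36.4 ± 3.24, Il33 at 33.2 ± 24.2, Il1b at 13.4 ± 6.77 and Il1rn at 10.5 ± 1.32. P2rx7 followed at 6.39 ± 1.85, Il18 at 5.09 ± 1.62, Il1r1 at 4.004 ± 1.02, Il1a at 1.58 ± 0.23 and Il1rl1 at 1.01 ± 0.69 CPM per kilobase. Neighbours in this order overlapped, apart from Anxa1 above Hmgb1, Il1rn above P2rx7 and Il1r1 above Il1a. In the controls the spread was wider. Anxa1 stood at 98.6 ± 92.5 CPM per kilobase and overlapped Hmgb1 at 44.6 ± 9.59. Next came Il18 at 13.0 ± 8.25, Il33 at 10.1 ± 9.46, Il1r1 at 8.78 ± 2.97, Il1b at 5.55 ± 5.68, P2rx7 at 4.77 ± 2.74, Il1rn at 3.61 ± 3.74 and Il1a at 3.08 ± 1.77. From Il18 to Il1a each overlapped with the next, and Il18 was below every control value of Hmgb1. Il1rl1 was lowest, at 0.787 ± 0.609, below every control value of Il1a.

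Ligands were also set against their antagonist, receptor or fellow ligand within each library, as ratios of CPM per kilobase. Il1b over Il1rn was 1.53, 1.55 and 1.57 in the controls, although both genes differed several fold between those controls, and 0.833, 0.921 and 2.14 in the treated tumors (exact permutation p = 0.4). The ratio was below the controls in treated tumors 1 and 2 and above them in treated tumor 5. Il1a over Il1b was 0.140, 0.904 and 2.81 in the controls and 0.170, 0.165 and 0.0727 in the treated tumors (exact permutation p = 0.3). Il18 over Il1b was 0.303, 5.88 and 10.6 in the controls and 0.485, 0.625 and 0.209 in the treated tumors (exact permutation p = 0.3). In both ratios controls 6 and 7 were above all other libraries and control 5 was not. Il33 over Il1rl1 was 33.8, 4.28 and 11.1 in the controls and 19.3, 41.2 and 62.3 in the treated tumors (exact permutation p = 0.2). None of the 4 ratios separated the groups.

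The wider pathway was read from 9 lists that do not contain the 10 genes, with 97 genes, of which 87 were kept. None of the 87 passed the adjusted threshold in edgeR. At an unadjusted p under 0.05, 9 were higher and 3 lower, against 2.87% and 14.6% of all genes. The groups did not overlap for 18 higher and 5 lower, against 8.87% and 8.31%. DESeq2 called 4 higher (Il18bp, Mefv, Hspa1a and Hspa1b) and 2 lower (Il1rap and Chuk), against 0.994% and 9.54%. Without control 5, edgeR called 38 higher and 6 lower, against 22.2% and 25.5%, and with control 5 as the only control it called 0.

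Among the other IL-1 family ligands and decoys, 2 of 7 were kept, with a median log2 fold change of 1.00 against 0.02 over all genes kept. Il18bp, the secreted decoy for IL-18, had 21.9, 18.5 and 13.6 CPM in the controls and 29.1, 31.7 and 47.7 CPM in the treated tumors. All treated tumors were above all controls, and control 5 lay close to control 6. Its log2 fold change was 1.00 ± 0.30 (SE), with an adjusted p of 0.247 in edgeR and 0.0394 in DESeq2. Il1r2, the decoy receptor for IL-1, had 10.7, 0.848 and 0.430 CPM in the controls and 9.34, 6.81 and 8.32 CPM in the treated tumors, a log2 fold change of 0.99 ± 1.10. Its control values rest on 245, 10 and 4 counts. Il36a, Il36b and Il1f10 had 0 counts in every library.

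Of the other IL-1 family receptors, 5 of 7 were kept, 4 of them with a log2 fold change above 0 (median 0.26). Il1rap is the shared co-receptor of IL1R1 and ST2, and a gene that liver expresses. It had 37.2, 235 and 408 CPM in the controls and 33.02, 30.3 and 21.1 CPM in the treated tumors, a log2 fold change of -3.01 ± 0.83 (adjusted p = 0.247 in edgeR and 0.00524 in DESeq2). Controls 6 and 7, the libraries with the highest hepatocyte markers, carried most of that difference, and the part of hepatocytes in it was not tested. Il18rap and Il1rl2, receptor chains for IL-18 and IL-36, had log2 fold changes of 0.85 and 0.49 with overlapping groups.

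The 17 genes of IL-1 receptor signalling had a median log2 fold change of -0.01, with 8 above and 9 below 0. Chuk, the kinase IKKα, had 88.9, 168 and 240 CPM in the controls and 65.2, 58.1 and 64.7 CPM in the treated tumors (log2 fold change -1.40 ± 0.39, adjusted p = 0.247 in edgeR and 0.0234 in DESeq2). Ikbkg, the NEMO subunit of the same kinase complex, had a log2 fold change of -0.94 and Tab1, an adaptor of the kinase TAK1, 0.56, both with overlapping groups. Of the 12 inflammasome and cytokine maturation genes, 10 were above 0 (median 0.72). Mefv, which encodes pyrin, had 2.15, 1.70 and 0.861 CPM in the controls and 3.26, 3.97 and 4.47 CPM in the treated tumors (log2 fold change 1.29 ± 0.41, adjusted p = 0.247 in edgeR and 0.0293 in DESeq2). Casp1, the protease that cuts pro-IL-1β and pro-IL-18, had 38.3, 31.0 and 12.1 CPM in the controls and 50.2, 63.7 and 47.9 CPM in the treated tumors, without overlap (log2 fold change 0.99 ± 0.43, adjusted p = 0.303). Panx1, an ATP release channel, had a log2 fold change of 1.02 with overlapping groups.

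In extracellular ATP handling, 8 of 9 genes were kept (median 0.15, 5 above and 3 below 0). Adora2b, an adenosine receptor, was at 0.215 to 1.40 CPM in the controls and 2.34 to 2.94 CPM in the treated tumors (log2 fold change 1.76 ± 0.61). It rests on 32, 7 and 2 counts in controls 5, 6 and 7, the last below the floor of 3 counts. P2ry6, a UDP receptor, had a log2 fold change of 1.02 without overlap, and P2ry2, an ATP and UTP receptor, one of -1.17 with overlap. The 9 HMGB1 relatives and receptors had a median of 0.81. Cd14, a co-receptor of Toll-like receptors, had 51.7, 24.8 and 10.7 CPM in the controls and 75.4, 98.3 and 94.4 CPM in the treated tumors (log2 fold change 1.62 ± 0.56, adjusted p = 0.247). Tlr2 had a log2 fold change of 1.02 without overlap. Havcr2, which encodes TIM-3, had one of 0.98 with control 5 at 231 CPM, above every treated tumor. The 9 annexins and formyl peptide receptors had a median of 0.33, with 8 above 0. Anxa2 had 1456, 303 and 89.4 CPM in the controls and 1738 to 1965 CPM in the treated tumors (log2 fold change 1.58 ± 0.98). Anxa3 was at 1.05 with overlap and Fpr2, a receptor for annexin A1, at 0.88 without.

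Other death-associated molecules gave the highest list median in the main fit, 1.10, with 8 of 11 above 0. The median was 0.48 with at least 10 counts in every library, 0.53 without GOx-DOX-LGP 5 and 0.44 without controls 6 and 7. It was 1.70 under library totals. With at least 10 counts in every library it was below that of the HMGB1 relatives and receptors (0.83). Hspa1b, an inducible heat shock protein 70 gene, is named because DESeq2 called it, and had 8.12, 14.1 and 11.3 CPM in the controls and 25.5, 26.1 and 20.1 CPM in the treated tumors. It was high in all treated tumors and control 5 was the lowest library. Its near-identical neighbour Hspa1a had 1.84, 0.678 and 0.430 CPM in the controls and 4.45, 4.16 and 4.21 CPM in the treated tumors (log2 fold change 2.05 ± 0.56, adjusted p = 0.247 in edgeR and 0.00767 in DESeq2). The control values of Hspa1a rest on 42, 8 and 4 counts. Reads common to Hspa1a and Hspa1b can be split by the counting, so their separate levels are uncertain. Clec4e, the receptor Mincle for debris of dead cells, had 0 to 1.97 CPM in the controls and 4.65 to 8.08 CPM in the treated tumors (log2 fold change 2.64 ± 1.00). Its counts in controls 5, 6 and 7 were 45, 9 and 0. Lgals3 had a log2 fold change of 1.80 with overlap. The 3 genes of the list below 0 were Calr, which encodes calreticulin (-0.51), Clec9a (-0.47) and Sap130 (-0.08), all with overlap. Calr had 835, 1324 and 1880 CPM in the controls and 954, 974 and 899 CPM in the treated tumors. Of the 16 genes known to be induced by IL-1, 14 were kept, 11 of them above 0 (median 0.52). Ccl2, a monocyte chemoattractant, had 24.5, 6.70 and 1.29 CPM in the controls and 71.9, 53.1 and 65.2 CPM in the treated tumors (log2 fold change 2.53 ± 0.94, adjusted p = 0.257 in edgeR). Il6 and Mmp3 had log2 fold changes of 1.24 and 1.10 with overlap, and Il6 had 0 counts in controls 6 and 7 and at most 22 counts elsewhere. The 3 genes of this list below 0 were Cxcl1 (-0.87), Csf2 (-0.38) and Icam1 (-0.32), all with overlap. The median of the IL-1-induced list was 2.57 without control 5 and 0.005 without control 7. With control 5 as the only control, it was -0.44.

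**Figure D4:**
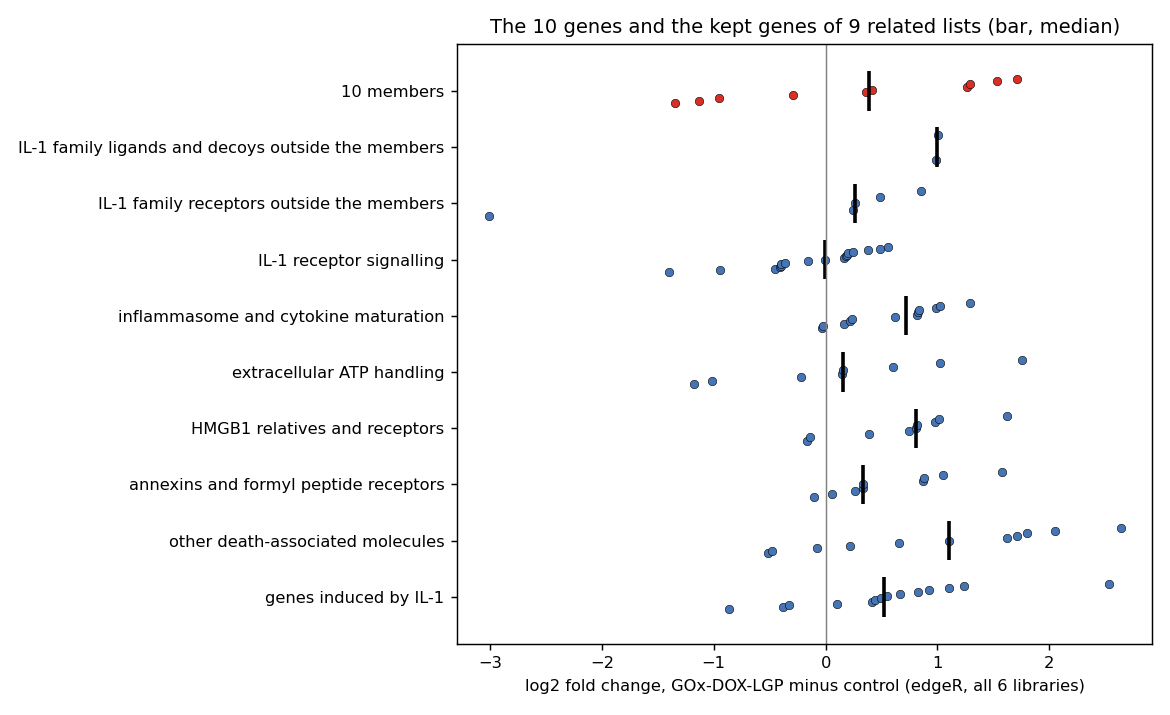
Log2 fold change (GOx-DOX-LGP minus control, edgeR, all 6 libraries) of the 10 genes (red) and of the 87 kept genes of 9 related lists (blue), each point 1 gene and each bar the median of its row. The 10 genes spread from -1.35 to 1.71, Il1rap is the lowest point at -3.01, and list medians run from -0.01 for IL-1 receptor signalling to 1.10 for other death-associated molecules.

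The genes whose log2 CPM followed Il33 most closely over the 6 libraries were Stk3, Ywhaq and Serpinb9e (Pearson's r = 0.998, 0.998 and 0.997). For Il1b they were Traf2, Nfkbid and Gpr18 (0.998, 0.996 and 0.994) and for Hmgb1 Atp5l, Pih1d1 and Dgat1 (0.999, 0.998 and 0.998). Of 15364 genes compared, 243 had r above 0.95 with Il33, 551 with Il1b and 1110 with Hmgb1. The libraries form separate clusters, and such values describe a split that many genes share.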

How the data were processed

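RNA of 6 HCA-1 tumors was sequenced, 3 from untreated controls and 3 from the GOx-DOX-LGP group, and groups were taken from the labels. The authors deposited raw counts per gene for 55536 genes, without pooling of replicates, and for 34685 of them a signal value, which is the deposited count divided by 1 size factor per library. Gene symbols came from the latter table. The paper's methods name TopHat and HTSeq, edgeR for normalization and DESeq2 for differential expression. The submitters' processing notes instead list CASAVA, FastQC, MultiQC, Trimmomatic 0.38, HISAT2 2.1.0 and featureCounts 2.0.0. Genome build, annotation and strand setting are not given in the sources used here, and the choice of aligner and counter can change the counts of genes with copies, such as Hmgb1. Libraries were made with the KAPA mRNA HyperPrep kit.

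Genes with low counts were dropped by filterByExpr (default settings), library sizes were scaled by TMM, and the raw counts were tested with edgeR 4.0.16 (quasi-likelihood test, Benjamini-Hochberg over all genes kept, threshold 0.05) in R 4.3.3. DESeq2 1.42.0, limma voom 3.58.1, other scalings and filters, and leaving out each library were alternatives. Leaving out controls 6 and 7 together was added after the data were seen. Steps were tested on simulated data built from a shared mean profile, apart from genes changed on purpose. These data held no difference in composition like that of controls 6 and 7, so they do not cover that setting. Log2 CPM values for permutation tests and likeness used an added 0.25 CPM. Permutation tests were exact and two-sided (scipy 1.17.1). Figures were drawn with matplotlib 3.10.9 in Python 3.11.15. Exon lengths, gene positions and shared 50-base stretches came from GENCODE M21 (GRCm38), in which 55450 gene IDs were found. Promoter windows came from RefSeq (GRCm38.p6), which held all 10 genes. Libraries held 15529940 to 18401178 counts, and the 10 genes had 18 to 17556 counts per library. Pathway and marker genes named above went beyond that range, such as Clec4e with 0 counts in control 7 and Lgals3 with 40442 in GOx-DOX-LGP 5. Precision is limited by the spread between 3 libraries per group.

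The 10 genes, the 9 pathway lists and the 11 marker lists were chosen with earlier results of these data known. Named were all 10 genes, the 3 genes of each pathway list with the largest absolute log2 fold change, the 3 genes closest to Il33, Il1b and Hmgb1 in Pearson's r, and markers at 0 or highest where they touched a result. Hspa1b, Calr, Clec9a, Sap130, Cxcl1, Csf2, Icam1, Il36a, Il36b and Il1f10 are outside this rule. So are several single markers, such as Cd44, Krt19, Gata3, Klrg1, Rora and Areg. All of these were named after their values were seen.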

Additional observations from a re-analysis of the deposited data

How the results depend on the processing

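None of the 10 genes passed the adjusted threshold with all 6 libraries under any scaling, filter or tool run, and all kept their direction relative to the median of all genes under the 4 scalings. DESeq2 called 1516 genes over the whole table and 6 of the pathway lists, where edgeR called 0. Leaving out 1 library at a time gave 0 to 7745 genes called over the whole table, 0 to 44 of the pathway lists and 0 to 7 of the 10 genes, and the upper ends (7745, 44 and 7) came without control 5. The count of the 10 genes without overlap was 2, against 17.2% of all genes. It was 1 under library totals (17.6%) and 4 without controls 6 and 7 (54.2%), and ranged from 2 to 8 over the leave-one-out fits, with 4 without GOx-DOX-LGP 5 (23% of all genes) and 8 without control 5 (72%). The following log2 fold changes changed sign. Under library totals Hmgb1 was 0.32. Without controls 6 and 7 Hmgb1 was 0.12, Il18 0.49 and P2rx7 -0.21. Il1rl1 ranged from -0.041 (without control 7) to 1.15 over the leave-one-out fits. List medians that changed sign without controls 6 and 7 were those of the HMGB1 relatives and receptors (-0.085), the IL-1 family receptors (-0.032), the IL-1-induced genes (-0.44) and the inflammasome genes (-0.066). That of extracellular ATP handling ranged from -0.11 (without GOx-DOX-LGP 2) to 0.37 over the leave-one-out fits. The median of IL-1 receptor signalling, near 0, was 0.035 with at least 10 counts in every library, 0.064 without a filter, 0.52 under library totals, 0.17 under upper quartile scaling, and over the leave-one-out fits it ranged from -0.084 to 0.095, with 0.095 without GOx-DOX-LGP 5, 0.038 without control 5 and 0.018 without control 7. The cause of these changes was not tested, apart from library totals, which moved the median of all genes to 0.51. No paired analysis was possible because the groups share only 1 replicate number. The control libraries spread up to 10.3-fold (Anxa1). The lowest count of any of the 10 genes in a library was 18 (Il1rl1), followed by 28 (Il1rl1) and 32 (Il1b).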
